A study of Mus musculus with 360 samples.

Results

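Cyp2b10 encodes a cytochrome P450 of the endoplasmic reticulum and is the gene most often read as a marker of the nuclear receptor CAR in mouse liver. All probes of this gene in the deposited count table were taken, over every tissue, compound and concentration. There was 1 such probe, numbered 30803, among the 3154 probes, for 2759 genes, of the TempO-Seq panel (Mouse S1500+, v1.2). TempO-Seq is an assay in which pairs of short oligonucleotides are ligated on the target RNA, amplified and sequenced. Female B6D2F1/Crl (BDF-1) mice, 9 weeks old according to the labels, had been assigned to 1,2-dichlorobenzene (1,2-DCB) at 1, 10, 30, 100 or 250 ppm or to 1,4-dichlorobenzene (1,4-DCB) at 1, 10, 50, 150 or 400 ppm, and each series had its own controls at 0 ppm. Left liver lobe, lung, whole ovaries, heart and kidney were collected on study day 5 from 37 animals of the 1,2-DCB series and 35 of the 1,4-DCB series. The route of exposure is not given in the sources used here.

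The submitters marked 326 of the 360 libraries as used, and the comparisons below rest on these. Liver groups held 2, 4, 5, 5 and 6 animals from 1 to 250 ppm 1,2-DCB with 9 controls, and 5, 4, 5, 4 and 5 animals from 1 to 400 ppm 1,4-DCB with 7 controls. Lung, ovary and heart groups held 4 to 7 exposed animals and 10 controls in each series, whereas kidney groups held 2 to 6 exposed animals with 5 controls for 1,2-DCB and 6 for 1,4-DCB. The libraries left out by the submitters included 21 kidney libraries, of which 16 carried a note of contamination, and 11 liver libraries, of which 9 had low depth. Depth was 14116843 to 40289222 counts per library in liver, 12446510 to 46480385 in lung, 4341679 to 13091634 in ovary, 7817849 to 29379812 in heart and 8023374 to 23485676 in kidney. The Cyp2b10 probe itself collected a median of 1735 counts in liver and 17396 in lung, against 58 in ovary, 6 in heart and 2 in kidney. Values in heart and kidney therefore rest on a handful of counts. Levels are given as CPM, counts scaled to the effective library size within each tissue, except that the summed levels of cell type markers, and the Cyp2f2 levels given for single heart libraries, are CPM of the library total.

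CAR (Nr1i3) is a nuclear receptor of hepatocytes that is held in the cytoplasm in complex with chaperones. Drugs and industrial chemicals release it, either by binding it or by blocking signalling from the epidermal growth factor receptor, and it then pairs with RXR on enhancers of drug-metabolism genes. Among these the phenobarbital-responsive enhancer upstream of Cyp2b10 is the classic example. The related receptor PXR (Nr1i2) shares many of the same targets, with Cyp3a11 as its usual marker. In the lung, Cyp2b10 is expressed without an inducer, in airway epithelium.

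Cyp2b10 lies on the forward strand of chromosome 7 at 25897658-25926624 in RefSeq on GRCm38.p6, and GENCODE M21 gives transcripts with 9 and 10 exons. GENCODE M21 starts the gene further upstream, at 25897620, and positions below are counted from the RefSeq start. Its neighbours on the panel are Cyp2a4 (26307192-26315088), Cyp2a5 (26835339-26843264) and Cyp2f2 (27119955-27133660) on the same chromosome. The close relatives Cyp2b13, Cyp2b9, Cyp2b23 and Cyp2b19, which lie near it, have no probe of their own on the panel, and the probe sequence was not used here, so a contribution of their transcripts to the Cyp2b10 count cannot be told apart. The 300 bases around the start site are shown because they are the promoter of the transcript that rose in liver. They are RefSeq's reference sequence on GRCm38.p6 at chr7:25897408-25897707, forward strand, with 250 bases before the start and 50 after it. Capitals mark, in order, an 8-base match to TTGCATAA, an ATAAAA element and the ATG of the start codon.
Cyp2b10 promoter: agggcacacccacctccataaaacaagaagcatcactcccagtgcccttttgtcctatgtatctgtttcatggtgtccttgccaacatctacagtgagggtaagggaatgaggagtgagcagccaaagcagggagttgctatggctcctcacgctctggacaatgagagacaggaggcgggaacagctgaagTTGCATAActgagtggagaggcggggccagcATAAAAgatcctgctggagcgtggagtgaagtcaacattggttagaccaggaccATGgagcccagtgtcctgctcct
Motifs were searched on both strands. TTGCATAA, which resembles a site for C/EBP and PAR-bZIP factors and was chosen after the sequence had been read, began at position -58 from the start site, and 0.743% of the 32851 RefSeq promoter windows of this length held it. ATAAAA was found at -27 and at -233, and 18.5% of windows held it. The match at -27 lies inside the gene as GENCODE M21 places it. TATAAA (in 13.6% of windows), GGGCGG (35.7%), the nuclear receptor site AGGTCA (16.3%) and its repeat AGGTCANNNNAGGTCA (0.0152%) had no match in this window. The phenobarbital-responsive enhancer lies upstream of the window printed here.

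Without exposure, Cyp2b10 was a lung transcript first and a liver transcript second. Its level was 850.4 ± 141.4 CPM in lung (SD, n = 20 control animals of both series), 65.3 ± 20.7 CPM in liver (n = 16), 8.55 ± 2.95 CPM in ovary (n = 20), 0.595 ± 0.890 CPM in heart (n = 20) and 0.191 ± 0.231 CPM in kidney (n = 11). In kidney 5 of the 11 control libraries had no count, and in heart 1 of 20 had none; over all libraries without a count, 3 counts correspond to 0.128 to 0.356 CPM in kidney and 0.210 to 0.330 CPM in heart. These levels are scaled within each tissue, and the gaps between tissues depend on that scaling. When the control libraries of the 5 tissues were scaled together, the means were 659 CPM in lung, 136.2 CPM in liver, 3.75 CPM in ovary, 1.001 CPM in heart and 0.144 CPM in kidney. On that scale the level in liver was lower than in lung by 2.26 ± 0.18 on the log2 scale (SE, log2 difference -2.26). Liver was above ovary by 5.20 ± 0.19, ovary above heart by 2.02 ± 0.25, and heart above kidney by 2.61 ± 0.48. Every neighbour in this order differed (edgeR quasi-likelihood test, Benjamini-Hochberg adjusted p at most 9.23e-07), in a setting where between 77.1% and 88.3% of all probes differed between any pair of tissues. Fewer cells of a type and less RNA per cell cannot be told apart in whole-tissue libraries.

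**Figure D1:**
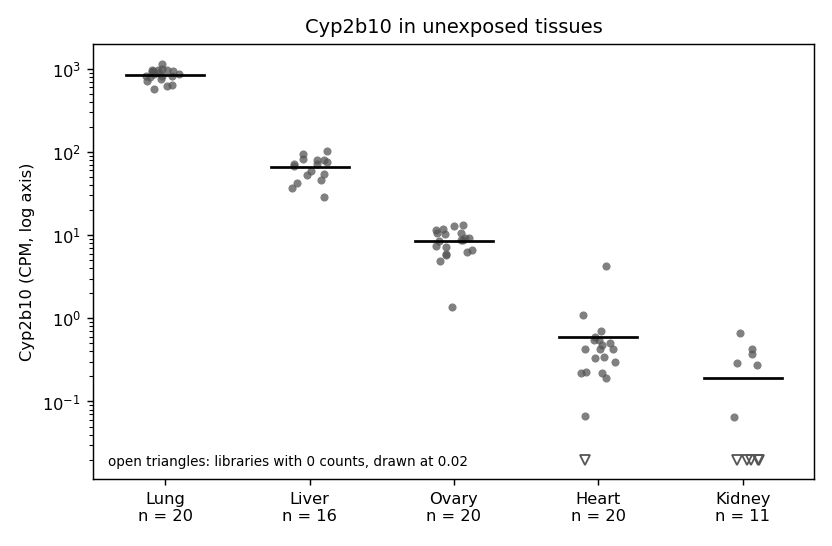
Cyp2b10 level (CPM, log axis) in each control animal at 0 ppm, by tissue, with both series drawn together and black bars for the means. Scaled within each tissue, lung averaged 850.4 CPM and liver 65.3 CPM, while heart and kidney lay around or below 1 CPM.

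In liver, Cyp2b10 rose with both isomers, at and above 100 ppm for 1,2-DCB and at and above 150 ppm for 1,4-DCB. At 400 ppm 1,4-DCB the 5 animals had 1166, 1335, 1355, 1534 and 1679 CPM, against 52.9 to 102 CPM (median 70.7) in the 7 controls of that series. The groups did not overlap, and the exposed animals lay close together. The means were 1414 ± 197 and 72.2 ± 19.3 CPM (SD), a log2 change of 4.29 ± 0.27 (SE; 19.6-fold, 95% interval 13.5 to 28.4, adjusted p = 8.95e-20), and 31.6% of the 2601 liver probes changed at that concentration. At 150 ppm 1,4-DCB the 4 animals had 272, 282, 510.3 and 573 CPM, so that they fell into a lower and a higher pair, both above all controls. The log2 change was 2.50 ± 0.26 (5.67-fold, 3.95 to 8.15, adjusted p = 9.89e-11), with 5.96% of probes changed. Ranked by p, Cyp2b10 was the 8th of all liver probes at 150 ppm and the 10th at 400 ppm.

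The 1,2-DCB series gave a smaller change at its own top concentration. At 250 ppm the 6 animals had 148.7, 170.1, 179, 249.7, 253 and 298 CPM, against 28.9 to 82.5 CPM (median 67.6) in the 9 controls. The groups did not overlap. The means were 216 ± 58.6 and 59.98 ± 21.2 CPM, a log2 change of 1.85 ± 0.22 (3.61-fold, 2.65 to 4.91, adjusted p = 3.09e-10). At this concentration 49.8% of all liver probes changed, and Cyp2b10 ranked 257th by p. At 100 ppm the 5 animals had 74.6, 100.2, 100.2, 130.4 and 130.9 CPM, of which 4 lay above every control, and the log2 change was 0.84 ± 0.23 (107.2 ± 23.8 against 59.98 ± 21.2 CPM, adjusted p = 0.0068, with 18.8% of probes changed). This call was lost when the libraries marked as not used were put back (0.81, adjusted p = 0.267) and in the permutation test (0.90, adjusted p = 0.0583).

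At the lower concentrations Cyp2b10 did not pass the test in liver. At 30 ppm 1,2-DCB the level was 83.1 ± 21.8 CPM, a log2 change of 0.47 ± 0.24 (adjusted p = 0.211, with 11.7% of probes changed), and 2 of the 5 animals lay above every control. At 50 ppm 1,4-DCB it was 80.6 ± 24.1 CPM (0.16 ± 0.25, adjusted p = 0.954, 0.769% of probes changed), with values of 51.001 to 110.5 CPM that straddled the controls. At 10 ppm the level was 58.8 ± 9.76 CPM with 1,2-DCB (-0.03 ± 0.26, 5.34% of probes changed) and 49.9 ± 15.4 CPM with 1,4-DCB (-0.53 ± 0.27, 0% changed). At 1 ppm 1,4-DCB the 5 animals had 24.7, 25.4, 48.8, 57.4 and 60.4 CPM, a log2 change of -0.74 ± 0.25 whose unadjusted p of 0.0055 became 0.632 after adjustment, and 0% of probes changed. The 2 animals at 1 ppm 1,2-DCB had 30.1 and 52.2 CPM (-0.54 ± 0.35, adjusted p = 1, 0% changed). Over all concentrations of a compound, the slope per unit of log10(ppm + 1) was 1.58 ± 0.14 on the log2 scale for 1,4-DCB (adjusted p = 6.85e-14, with a slope in 23.7% of probes) and 0.70 ± 0.15 for 1,2-DCB (adjusted p = 0.000122, with a slope in 41.3%).

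**Figure D2:**
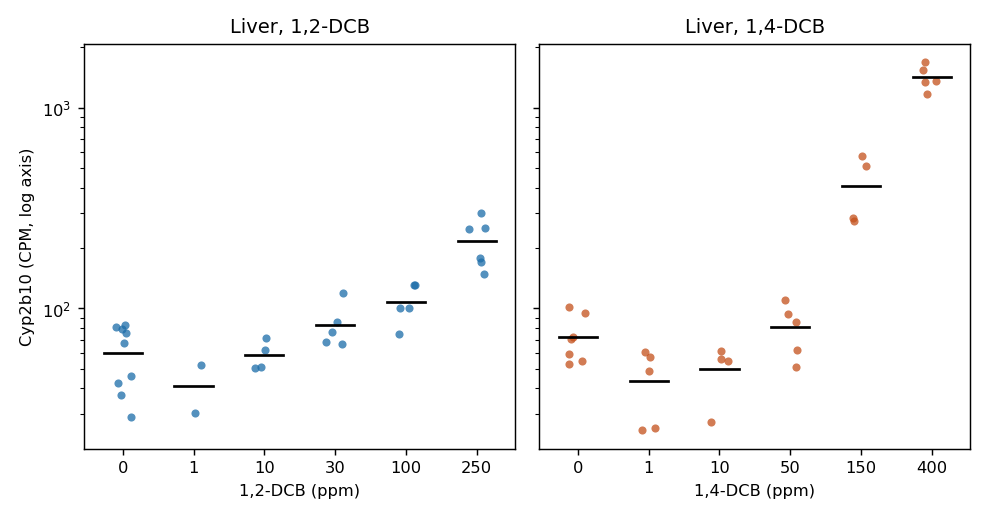
Cyp2b10 level in liver (CPM, log axis) in each animal by concentration, with 1,2-DCB and 1,4-DCB in separate panels and black bars for group means. The animals at 250 ppm 1,2-DCB (148.7 to 298 CPM) and at 150 and 400 ppm 1,4-DCB (272 to 1679 CPM) stand above every control of their series.

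Hepatocyte and blood transcripts moved in the same livers. The summed level of the 13 hepatocyte marker genes measured, of 23 listed, was 228471 to 265345 CPM at 250 ppm 1,2-DCB, against 355305 to 417882 CPM in its controls, and 286487 to 302407 CPM at 400 ppm 1,4-DCB, against 365849 to 403825 CPM. The red cell markers (4 measured of 5) summed to 270 to 4254 CPM at 250 ppm 1,2-DCB, against 5304 to 20822 CPM. Their part in the change of Cyp2b10 was not tested. With the red cell probes left out before scaling, an alternative added after seeing the data, no Cyp2b10 change in liver lost or gained its call.

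The transcript of the receptor itself fell in liver at the top concentration of each compound. One Nr1i3 (CAR) probe, 30612, had 189.8 to 379 CPM (median 265) in the 6 livers at 250 ppm 1,2-DCB, against 487 to 938 CPM (median 836) in the controls. In livers at 400 ppm 1,4-DCB it had 313 to 445 CPM (median 427), against 727 to 1094 CPM (median 835). Neither compound's groups overlapped. The log2 change was -1.58 ± 0.14 at 250 ppm 1,2-DCB (adjusted p = 2.75e-14) and -1.13 ± 0.15 at 400 ppm 1,4-DCB (adjusted p = 2.37e-08). The second Nr1i3 probe, 32070, gave -1.53 ± 0.11 and -1.09 ± 0.12. The 250 ppm and 400 ppm values stand side by side only, since the series did not share these concentrations. At 150 ppm 1,4-DCB, where Cyp2b10 was already 5.67-fold higher, the probes gave -0.44 each, with adjusted p = 0.109 for 30612 and 0.0282 for 32070.

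**Figure D3:**
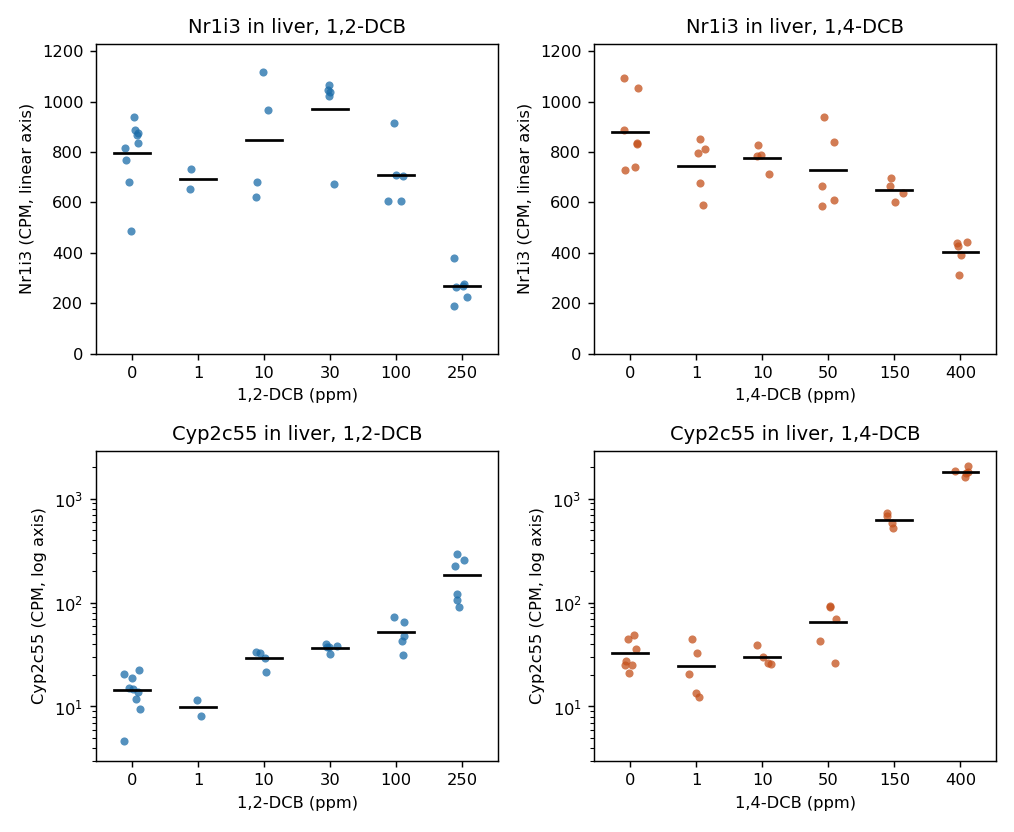
Level of the Nr1i3 probe 30612 (CPM, linear axis) and of Cyp2c55 (CPM, log axis) in each liver by concentration, with black bars for group means. Nr1i3 was lower at 250 ppm 1,2-DCB (mean 266 CPM) and 400 ppm 1,4-DCB (403 CPM) than in every control, where Cyp2c55 was higher.

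Other regulators of the receptor also fell in liver or did not pass the test. Of the 16 probes for 13 genes of CAR, PXR, their partners and coregulators, 0 were higher and 8 lower at 250 ppm 1,2-DCB, where 25.1% of all probes were higher and 24.6% lower. With 400 ppm 1,4-DCB 0 were higher and 5 lower, against 18% and 13.6% of all probes. Egfr, the epidermal growth factor receptor, fell by 2.85 ± 0.26 at 250 ppm 1,2-DCB and by 0.79 at 400 ppm 1,4-DCB. Nr3c1, the glucocorticoid receptor, fell by 0.40 and by 0.34 in the same comparisons. Nr1i2 (PXR) fell by 0.25 at 250 ppm 1,2-DCB (adjusted p = 0.0078), and its log2 change at 400 ppm 1,4-DCB was -0.21 (adjusted p = 0.065). Hnf4a, a master regulator of hepatocyte genes, fell by 0.40 at 250 ppm 1,2-DCB and gave -0.11 at 400 ppm 1,4-DCB (adjusted p = 0.395).

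Cyp2b10 did not rise alone among the enzymes and transporters that CAR and PXR are known to induce. Of 46 liver probes for 41 such genes, Cyp2b10 included, 32 rose and 0 fell at 400 ppm 1,4-DCB. Among all liver probes 18% rose and 13.6% fell there. The median log2 change was 1.01 in the list and -0.03 over all probes. At 250 ppm 1,2-DCB 24 rose and 11 fell, where 25.1% of all probes rose and 24.6% fell, with a median of 0.42 against -0.02. Of the 46 probes, 21 rose at both of these, as did 14.1% of all liver probes, and 7 rose at 400 ppm 1,4-DCB while they fell at 250 ppm 1,2-DCB, as did 0.769% of all liver probes. The lower 1,4-DCB concentrations gave 21 higher at 150 ppm and 5 at 50 ppm, where 5.07% and 0.73% of all probes were higher, and 0 lower at both, where 0.884% and 0.0384% of all probes were lower. With 1,2-DCB the list moved below the lowest concentration at which Cyp2b10 was called: 11 probes were higher and 1 lower at 10 ppm, and 21 higher and 1 lower at 30 ppm, where 2.65% and 6.11% of all probes were higher and 2.69% and 5.57% lower. These counts were less stable than those at the top concentrations. With the libraries marked as not used put back, 3 were higher at 10 ppm and 9 at 30 ppm, and leaving out the first or the third animal of each exposed group gave 3 and 7 higher at 10 ppm. Dbp, an output gene of the circadian clock, moved in the same livers. It had 168 to 407 CPM at 10 ppm 1,2-DCB and 90.9 to 422 CPM at 30 ppm, against 3.92 to 95.2 CPM in controls (log2 changes 3.26 ± 0.79 and 3.18 ± 0.76). With Dbp as a covariate 4 probes of the list were higher at 10 ppm and 19 at 30 ppm, and the change of Cyp2b10 itself was 0.26 (adjusted p = 0.740) and 0.75 (adjusted p = 0.0880). At 100 ppm 20 were higher and 0 lower, against 12% and 6.73% of all probes.

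Cyp2c55, a P450 related to Cyp2b10 in its induction, rose more than Cyp2b10 did. It averaged 1819 ± 153.1 CPM at 400 ppm 1,4-DCB and 32.6 ± 10.8 CPM in controls (log2 change 5.80 ± 0.33), and 183 ± 87.5 CPM at 250 ppm 1,2-DCB and 14.6 ± 5.56 CPM in controls (3.65 ± 0.28). Cyp2c29, an abundant liver P450, averaged 104609 CPM and 21662 CPM at 400 ppm 1,4-DCB and in its controls (2.27), and 50305 CPM and 14869 CPM at 250 ppm 1,2-DCB and in its controls (1.76). Ephx1, the microsomal epoxide hydrolase, rose by 1.66 at 400 ppm 1,4-DCB and by 1.16 at 250 ppm 1,2-DCB. The glutathione transferases, which conjugate reactive metabolites to glutathione, rose with both isomers: Gsta1 by 7.37 and 7.22, Gsta2 by 4.78 and 4.82, Gstm3 by 4.35 and 4.44, Gstm2 by 2.99 and 2.38, and Gstp1 by 1.85 and 2.75, with the 400 ppm 1,4-DCB value first. Gsta and Gstm genes have near-identical relatives, as have Cyp2c genes, and probes may share their reads. Ces2c, a carboxylesterase, rose by 2.46 at 400 ppm 1,4-DCB and by 1.42 at 250 ppm 1,2-DCB. The electron donor of P450s, Por, rose by 0.50 and 0.54 in these comparisons. It also rose by 1.04 at both 10 and 30 ppm 1,2-DCB, where it was not rerun singly under the alternatives. A probe of Alas1, the first enzyme of haem synthesis, gave 0.70 and 0.52 at these top concentrations and did not pass the test (adjusted p = 0.079 and 0.119).

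Several members went opposite ways with the isomers at their top concentrations, which differ. The 2 probes of Cyp3a11, the usual PXR marker, rose by 0.81 and 0.94 at 400 ppm 1,4-DCB and fell by 0.58 and 0.77 at 250 ppm 1,2-DCB. Cyp2c54 averaged 6296 CPM at 400 ppm 1,4-DCB and 2715 CPM in its controls (1.21), and 859 CPM at 250 ppm 1,2-DCB and 2501 CPM in its controls (-1.54). One Ces2a probe, 31826, rose by 1.73 at 400 ppm 1,4-DCB and fell by 0.44 at 250 ppm 1,2-DCB. Cyp2c38 fell by 2.49 at 250 ppm 1,2-DCB, and its log2 change of -0.31 at 400 ppm 1,4-DCB did not pass the test (adjusted p = 0.222). With the libraries marked as not used put back, the falls of Ces2a (-0.34, adjusted p = 0.352) and of the Cyp3a11 probes (-0.41 and -0.55, adjusted p = 0.246 and 0.131) no longer passed.

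**Figure D4:**
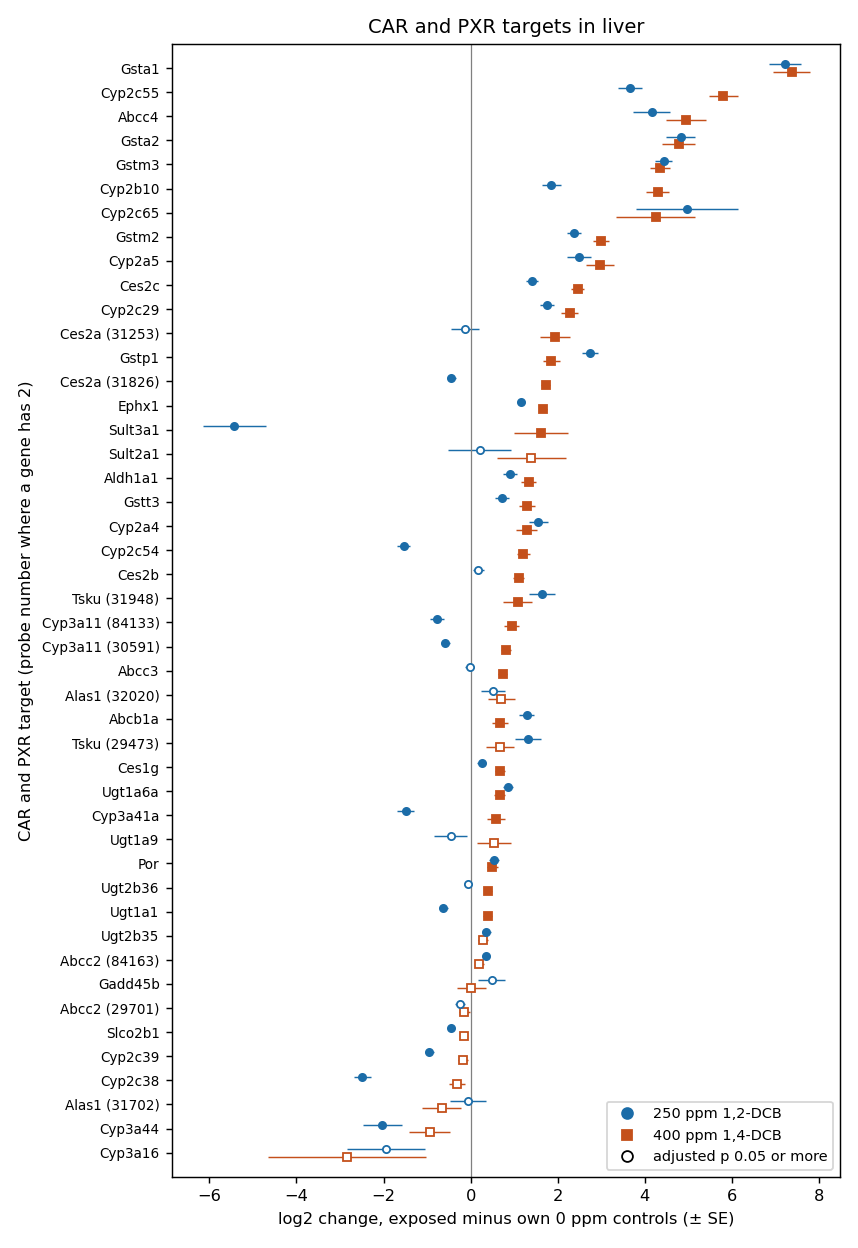
Log2 change in liver of 46 probes of CAR and PXR target genes at 400 ppm 1,4-DCB and 250 ppm 1,2-DCB against each series' controls, with SE bars and open symbols where the adjusted p is 0.05 or more. Cyp2b10 was at 4.29 and 1.85, and 7 probes were called higher with 1,4-DCB and lower with 1,2-DCB.

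Cyp2b10 shares its chromosome with a run of Cyp2 genes. In liver 2 of its 3 panel neighbours rose at both top concentrations, as did 14.1% of all liver probes. Cyp2a5, a coumarin hydroxylase, averaged 8460.2 ± 986 CPM at 400 ppm 1,4-DCB and 1073 ± 488 CPM in controls (log2 change 2.98 ± 0.32), and 5117 ± 1682 CPM at 250 ppm 1,2-DCB and 911 ± 264 CPM in controls (2.49 ± 0.28). Cyp2a4 rose by 1.29 and 1.56 in these comparisons, although its sequence is close to that of Cyp2a5. Cyp2f2, a P450 abundant in club cells of the airway, gave -0.10 and -0.15 and did not pass the test. Cyp2a5 was already higher at 10 ppm 1,2-DCB, with 2411 ± 1044 CPM (1.405 ± 0.31, adjusted p = 0.0031), where Cyp2b10 was at 58.8 CPM, close to its control level of 59.98 CPM. This Cyp2a5 call was not rerun singly under the alternatives. At 10 ppm the count of CAR and PXR target probes was unstable under them, and Dbp moved in the same livers.

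The genes whose liver level followed Cyp2b10 most closely were ranked by Pearson's r of mean log2 CPM over the 12 liver groups, as a description. The groups share their tissue and 2 sets of controls. The highest of 2600 other probes were Arpp19 (0.986), Cyp2c55 (0.973), Ephx1 (0.956), Gstt3 (0.954), Gstm2 (0.949), a second Arpp19 probe and Cyp2c29 (0.947 each) and Creg1 (0.938). Over all probes 22 were above 0.9 and the median was -0.04. Arpp19, a phosphatase inhibitor, averaged 1153 CPM at 400 ppm 1,4-DCB and 701 CPM in controls at probe 31951. At the other end stood Bambi (-0.934), Ets1 (-0.930) and Tle1 (-0.924). With each group's mean taken out, the highest over the 61 liver libraries were Cth (0.856), Adck3 (0.776), a Creg1 probe (0.755), Gnmt (0.753) and Got1 (0.743). Only Creg1 was named by both measures, through different probes, and Gstt3 ranked 6th by the second measure (0.739).

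In lung, where Cyp2b10 is abundant without exposure, it did not rise at the concentrations that raised it in liver. At 250 ppm 1,2-DCB the 6 animals had 375, 460.1, 632, 686, 695 and 722 CPM, against 627 to 994 CPM (median 915) in the 10 controls. The ranges overlapped, and the 2 lowest exposed animals set the low end. The means were 595 ± 143.2 and 870.2 ± 116.2 CPM, a log2 change of -0.55 ± 0.20 (adjusted p = 0.0273), where 32.6% of all 2756 lung probes changed. The red cell markers in these lungs summed to 17214 to 238745 CPM, against 241886 to 450726 CPM in controls. Scaled to library totals only, the change was -0.14 (adjusted p = 0.538), and with the red cell probes left out before scaling it was -0.55 (adjusted p = 0.0273). It also missed the threshold when the fit held the 1,2-DCB libraries alone (-0.55, adjusted p = 0.0668) or without the lowest animal, at 375 CPM (adjusted p = 0.0981). Cyp2f2, the club cell marker on the panel, averaged 22174 ± 11966 CPM at 250 ppm and 28233 ± 5613 CPM in controls. By CPM of the library total its median was 32802 CPM (7968 to 38111) at 250 ppm and 27002 CPM (15395 to 35223) in controls. Its direction therefore depends on the scaling or the summary used.

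Other CAR and PXR target genes did change in lung at 250 ppm 1,2-DCB, where 15 of 32 probes were higher and 3 lower, against 17.6% and 15% of all probes. Gsta1 rose by 5.35 ± 0.24 on the log2 scale, Ces1g by 3.40 ± 0.24 and Gsta2 by 2.43 ± 0.17. Cyp2a5 rose to 860 CPM, against 194 CPM in controls (2.15 ± 0.39, adjusted p = 1.09e-05). The CAR transcript was near the floor there: Nr1i3 probe 30612 had a mean of 0.590 CPM at 250 ppm and 0.465 CPM in controls. Which regulator moved these target genes in lung was not tested. At 400 ppm 1,4-DCB 5 of the 32 lung probes were higher and 0 lower, against 1.6% and 1.02% of all probes, with Ces1g at 2.42 ± 0.24.

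No other lung comparison was called. At 1 ppm 1,2-DCB 1 of the 4 animals had 2974 CPM and the others had 678, 688 and 842 CPM, for a log2 change of 0.57 ± 0.22 (adjusted p = 0.205, 0% of probes changed) that became -0.24 without that animal. Cyp2f2 in that library was 21571 CPM, and in the other 3 it was 21992, 22035 and 27131 CPM. At 10, 30 and 100 ppm 1,2-DCB the changes were 0.23, 0.49 and -0.07 (1.89%, 4.57% and 6.53% of probes changed), and at 30 ppm the level was 1219 ± 253 CPM (adjusted p = 0.202). With 1,4-DCB they were 0.01, -0.10, -0.09, -0.32 and 0.08 from 1 to 400 ppm, where 0%, 0.0726%, 1.2%, 0.472% and 2.61% of probes changed. The 5 lungs at 400 ppm 1,4-DCB had 782 to 948 CPM, inside the control range of 564 to 1148 CPM. Over the 12 lung groups the probes most like Cyp2b10 were Pink1 (0.888), Entpd8 (0.887), Hsd17b11 (0.844), Ep300 (0.831) and Cd83 (0.819), of which none was among those named in liver.

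In ovary Cyp2b10 stayed at a low level and no concentration was called. At 400 ppm 1,4-DCB the 5 animals had 10.2, 11.4, 13.2, 13.6 and 14.2 CPM, against 4.87 to 13.02 CPM (median 10.4) in 10 controls, a log2 change of 0.40 ± 0.44 (adjusted p = 0.858) with 0.479% of probes changed. At 250 ppm 1,2-DCB the level was 7.90 ± 2.71 CPM and in controls 7.61 ± 3.04 CPM (0.06 ± 0.42, adjusted p = 0.936, 15.9% of probes changed). The other changes lay between -0.89 at 50 ppm 1,4-DCB (unadjusted p = 0.0637) and 0.60 at 100 ppm 1,2-DCB, where 0% to 0.0737% of probes changed.

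In heart the only call rested on 1 animal. The 5 hearts at 400 ppm 1,4-DCB had 0.183, 0.549, 0.780, 1.04 and 5.56 CPM, with 3 to 22 counts in all but the highest, against 0 to 0.550 CPM (median 0.322) in the controls. The log2 change was 2.33 ± 0.69 (adjusted p = 0.0174, with 13% of probes changed), and it was 0.97 (adjusted p = 0.445) without exposed replicate 1, the animal at 5.56 CPM. That library also had 710 CPM of Cyp2f2, where the other 4 had 0.774 to 1.78 CPM and the controls 0 to 2.66 CPM. Without the 2 heart libraries over 100 CPM of Cyp2f2, an alternative added after seeing the data, the change was 0.98 (adjusted p = 0.494). Cyp2a5 (6.80 ± 1.08) and Cyp2f2 (6.91 ± 1.09) were called in the same comparison. At 150 ppm 1,4-DCB the change was 1.60 ± 0.71 (adjusted p = 0.0842, 27.3% of probes changed). The slope over 1,4-DCB concentrations in heart was 0.65 ± 0.22 (adjusted p = 0.0265, 22.1% of probes with a slope), and it includes that animal.

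In kidney the probe was at the limit of detection, with no count in 20 of 51 libraries. The 5 kidneys at 400 ppm 1,4-DCB had 0.203, 0.488, 1.05, 3.46 and 4.80 CPM (4, 11, 12, 47 and 64 counts), against 0 to 0.671 CPM in 6 controls. All but 2 exposed animals lay above the highest control. The log2 change of 3.04 ± 0.99 had an unadjusted p of 0.0038 and an adjusted p of 0.175, where 1.03% of probes changed. At 250 ppm 1,2-DCB the level was 0.652 ± 0.653 CPM and in controls 0.141 ± 0.200 CPM (2.07 ± 1.14, adjusted p = 0.268, 11.7% of probes changed). The hepatocyte markers were also higher: they summed to 4121 to 5787 CPM at 400 ppm 1,4-DCB, against 3442 to 4186 CPM in controls. At 250 ppm 1,2-DCB they summed to 5061 to 6270 CPM, against 3295 to 3864 CPM in controls of that series. With that sum as a covariate the changes were 0.75 ± 1.26 (adjusted p = 0.944) and -2.18 ± 1.67 (adjusted p = 0.540). The sum itself moved with exposure, without overlap at 250 ppm 1,2-DCB, so these fits cannot separate the 2.

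**Figure D5:**
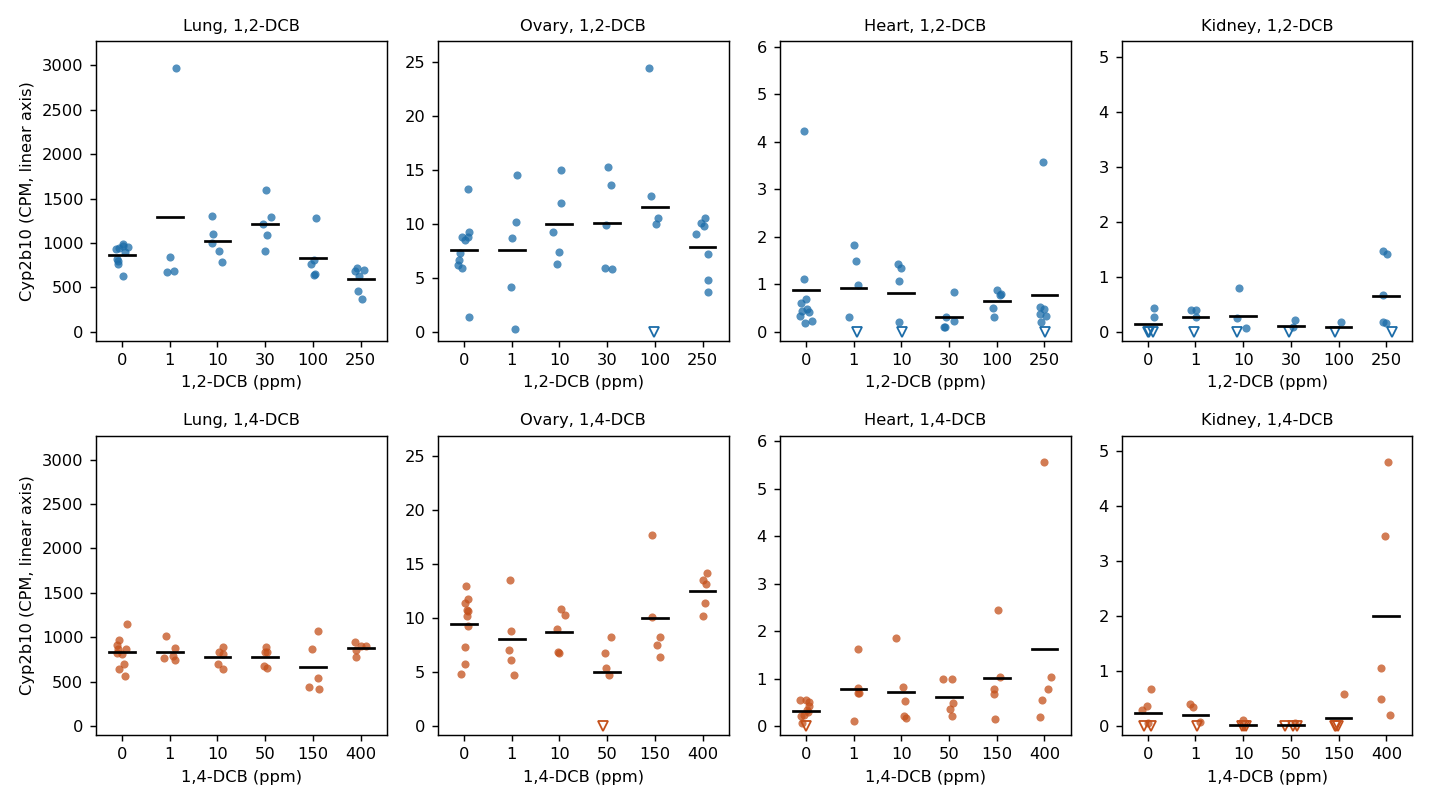
Cyp2b10 level (CPM, linear axes that differ between panels) in each animal by concentration in lung, ovary, heart and kidney, with black bars for group means and open triangles for libraries with no count. In lung the 6 animals at 250 ppm 1,2-DCB lie below the control mean of 870.2 CPM and the 5 at 30 ppm above it, and single animals at 2974 CPM in lung and 5.56 CPM in heart stand apart.

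The change at the top concentration was smaller in lung and ovary than in liver for both isomers, by a test of the difference itself. Lung minus liver was -4.03 ± 0.29 at 400 ppm 1,4-DCB (adjusted p = 1.69e-16, with such a difference in 25.5% of probes) and -2.16 ± 0.25 at 250 ppm 1,2-DCB (39.3% of probes). Ovary minus liver was -3.85 ± 0.37 (adjusted p = 2.1e-12, 16.5% of probes) and -1.60 ± 0.34 (adjusted p = 0.000115, 36.8%). Heart minus liver was -1.88 ± 0.79 at 400 ppm 1,4-DCB (adjusted p = 0.0763, 24.6%) and -1.86 ± 0.71 at 250 ppm 1,2-DCB (adjusted p = 0.0384, 30.4%), and with the animal as a block the second of these was -1.85 (adjusted p = 0.0879). Kidney minus liver was -1.35 ± 0.95 (adjusted p = 0.427, 14.6%) and 0.18 ± 0.86 (adjusted p = 0.920, 30.9%), with 95% intervals from -3.26 to 0.56 and from -1.55 to 1.91.

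The isomers carry their 2 chlorine atoms on neighbouring carbons of the ring in 1,2-DCB and on opposite carbons in 1,4-DCB. They share only 1 and 10 ppm, so the response of Cyp2b10 was compared there, as the 1,4-DCB change minus the 1,2-DCB change, each against its own controls, in 10 pairs of tissue and concentration. In liver the difference was -0.19 at 1 ppm (95% interval -1.03 to 0.64) and -0.50 at 10 ppm (-1.24 to 0.24). In lung it was -0.56 (-1.17 to 0.05) and -0.33 (-0.92 to 0.25). Ovary gave -0.26 (-1.55 to 1.04) and -0.51 (-1.80 to 0.78), heart gave 1.22 (-0.88 to 3.33) and 1.32 (-0.78 to 3.42), and kidney gave -0.97 (-4.50 to 2.56) and -3.53 (-7.48 to 0.42). No pair passed the test (edgeR, p adjusted over the 10 pairs 0.393 to 0.695), and at 1 ppm 0% of all probes differed between the isomers in any tissue. At 10 ppm 1.58% differed in liver, 0.363% in lung, 0% in ovary, 1.14% in heart and 0.22% in kidney. The intervals in heart and kidney span several log2 units, so that differences within them were not detectable in these libraries. The controls of the series, which received neither compound, differed by 0.27 in liver and -1.43 ± 0.64 in heart (unadjusted p = 0.0283, adjusted p = 0.251), and in no tissue was that difference called, where 0.577% of all probes differed in liver, 0.363% in lung, 6.16% in ovary, 1.87% in heart and 0.879% in kidney.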

How the data were processed

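The authors deposited 1 table of TempO-Seq counts, whole numbers per probe, for 360 libraries; its name says that the counts were adjusted for attenuation. Reads were aligned with Bowtie 1.3.1, per the submitters' processing notes; build and counting settings are not given in the sources used here. The labels give each library's tissue, compound, concentration, animal and use; 326 libraries were used. The 59 probes whose counts are all multiples of a whole factor (2 to 21) do not include Cyp2b10. In each tissue, low probes were filtered over the 12 groups and edgeR 4.0.16 (R 4.3.3) fitted quasi-likelihood models with TMM scaling, 1 coefficient per group; p-values were adjusted over all probes (Benjamini-Hochberg, called below 0.05), and intervals are 95%. CPM use TMM effective library sizes, and log2 CPM a prior count of 2. In data simulated for liver at 400 ppm 1,4-DCB, rises and falls in equal number were added to 200 probes. Of these 151 were called in either direction (75.5%), as were 3 unchanged ones, of 2576 tested. The real comparison called 823 probes, so the simulation does not cover scaling under so many changes. Of 824 replicate pairs, 0 were identical. Replicates are separate animals, per the labels. Alternatives were DESeq2 1.42.0 and its size factors, library totals, no filter, all libraries, the same compound alone, whole factors undone, Dbp or hepatocyte markers as covariate, a permutation test, a slope on ppm and each replicate left out; leaving out red cell probes and heart libraries with high Cyp2f2 were added after seeing the data. Intervals come from the spread between animals in the fit; floors (3 counts) cover counting error only. Labels' animal identifiers pair tissues (blocked fits were alternatives); within groups, deviations of the same animal's tissue and liver correlated weakly (median r 0.0242 to 0.0502). Named genes were Cyp2b10, likeness extremes and the 12 CAR and PXR targets with the smallest p plus set markers. Members, lists and tests were chosen with earlier results of these data known. Locations come from RefSeq and GENCODE M21 on GRCm38.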

Additional observations from a re-analysis of the deposited data

Results flagged for a closer look

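Single animals stood apart in 9 of the 57 groups of 4 to 10 animals, each as the highest of its group. The cut-off flags about 1 in 20 groups of normally distributed values, which CPM need not be, so no excess is claimed. Of the 9, 3 are kidney groups in which 1 library had counts and the rest had 0, which sets such a library apart by construction. In lung the animals set apart had 2974 CPM at 1 ppm 1,2-DCB and 1281 CPM at 100 ppm 1,2-DCB. In heart they were 5.56 CPM at 400 ppm 1,4-DCB, 3.59 CPM at 250 ppm 1,2-DCB, 0.848 CPM at 30 ppm 1,2-DCB and 4.23 CPM at 0 ppm of the 1,2-DCB series. In kidney they were 0.110 CPM at 10 ppm, 0.0627 CPM at 50 ppm and 0.585 CPM at 150 ppm 1,4-DCB, each the only library of its group with a count.

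The change of Cyp2b10 differed between tissues by a test of the difference, with lung minus liver at -2.16 (250 ppm 1,2-DCB) and -4.03 (400 ppm 1,4-DCB), ovary minus liver at -1.60 and -3.85, and heart minus liver at -1.86 at 250 ppm 1,2-DCB.

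Among the 34 libraries the submitters did not use, 12 had more Cyp2b10 by CPM of the library total than the highest used control of the same tissue and series. In liver of the 1,2-DCB series, where the highest control had 83.7 CPM, 2 libraries at 1 ppm had 329 and 357 CPM (43 and 34 counts), 1 at 10 ppm had 101 CPM and 1 at 250 ppm had 204 CPM (27 counts). In liver of the 1,4-DCB series, where the highest control had 96.8 CPM, a library at 150 ppm had 823 CPM (9600 counts), 1 at 10 ppm had 153.7 CPM (17 counts), and 2 at 0 ppm had 167 and 288 CPM (18 and 32 counts). A lung library at 1 ppm 1,2-DCB had 1757 CPM, against 1029 CPM in the highest control. In kidney of the 1,2-DCB series the values were 9.66 CPM at 1 ppm (3 counts), 46.8 CPM at 30 ppm (594 counts) and 0.498 CPM at 100 ppm, against 0.420 CPM in the highest control. The kidney library at 46.8 CPM had 203889 CPM of summed hepatocyte markers, and its part in that value was not tested.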

How the results depend on the processing

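Of 93 tests of Cyp2b10, 24 were called. Over 1708 alternative values, 1683 kept the direction and side of the threshold of the value reported or differed in sign without a call (87). Most tests were not called, and tests that stayed uncalled count among the 1683. In 11 tests the call changed under an alternative, and the cause was not tested. The calls in liver at 150 and 400 ppm 1,4-DCB and 250 ppm 1,2-DCB held in every alternative run, with ranges without 1 replicate of 2.27 to 2.63, 4.22 to 4.39 and 1.75 to 1.96. In liver at 100 ppm 1,2-DCB all libraries gave 0.81 (adjusted p = 0.267) and the permutation test 0.90 (0.0583). In lung at 250 ppm 1,2-DCB all libraries gave -0.47 (0.0981), the same compound alone -0.55 (0.0668), library totals -0.14 (0.538), and leaving out a replicate -0.62 to -0.45, the last without the lowest animal. In lung at 30 ppm 1,2-DCB library totals gave 0.60 (0.0468) and the permutation test 0.47 (0.0250), against 0.49 (0.202) in the value reported. Leaving out a replicate gave 0.37 to 0.58 there, all libraries 0.48 (0.369) and Dbp as covariate 0.11 (0.915). In lung at 1 ppm 1,2-DCB all libraries gave 1.12 (0.000313). The lung 1,2-DCB slope was -0.18 per unit of log10(ppm + 1) (0.0886), -0.30 with all libraries (0.0131) and -0.00323 per ppm (0.000564). In heart at 400 ppm 1,4-DCB the permutation test gave 1.35 (0.144), leaving out the 2 libraries with high Cyp2f2 0.98 (0.494), and leaving out a replicate 0.97 to 2.62; at 150 ppm library totals gave 1.88 (0.0373) and leaving out a replicate 1.03 to 1.88; the slope per ppm was 0.00415 (0.0563). The kidney 1,4-DCB slope was 1.06 per unit of log10(ppm + 1) (0.0908) and 0.00939 per ppm (0.00197). Kidney at 30 ppm 1,2-DCB, -0.48 in the used libraries, was 6.43 (9e-06) with all libraries, among them a library of 594 counts. The submitters noted that library as an outlier. Heart minus liver at 250 ppm 1,2-DCB was -1.85 with the animal as a replicate block (0.0879), -1.84 with library totals (0.0514), -1.75 with no filter (0.0534) and -1.70 without red cell probes (0.0531); the block changed no other call.

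Leaving out a replicate dropped the animal at that position, in order of animal number, from every exposed group, or the control of that number, so that 1 ppm 1,2-DCB in liver then rested on 1 animal, assumed to vary like the other groups. The count of CAR and PXR target probes in liver was 26 to 34 higher and 0 to 2 lower at 400 ppm 1,4-DCB, and 21 to 28 higher and 8 to 12 lower at 250 ppm 1,2-DCB. At 10 and 30 ppm 1,2-DCB, counted under the alternatives after seeing the data, it was 3 to 13 and 9 to 24 higher. Depth limits kidney and heart, where most libraries held under 10 counts.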

Other observations

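The 4 ovary libraries with the least Cyp2b10 were also the 4 with the least Cyp2f2, of 72, by CPM of the library total. They had 0, 0, 0.230 and 1.36 CPM of Cyp2b10 and 10.9, 20.3, 9.67 and 22.7 CPM of Cyp2f2, where every other ovary library had at least 3.55 CPM of Cyp2b10 and 24.3 to 475 CPM of Cyp2f2. They came from 50 ppm 1,4-DCB and from 100, 1 and 0 ppm 1,2-DCB. Their summed ovary markers were 12004, 11770, 15222 and 24094 CPM.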
